A study of Homo sapiens with 11 samples.

Results

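The genes described here are 45 named genes of DNA replication and S phase, covering replication origins, the replication fork and the supply of nucleotides. They were taken by symbol from a list of names, not by how they behaved, and a gene was kept where its deposited value reached 10 on the linear scale in at least 2 libraries. Of the 45, 44 had a row in the table of 40460 genes, and all 44 passed that filter, as did 17950 genes in all. All 44 in fact reached it in each of the 11 libraries. No row of the table matched UHRF1, which is not analysed here.

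The cells were hTert-HME1, an established human mammary epithelial line immortalised with telomerase, at passage 6 in mammary epithelial growth medium. They were transfected with 1 BRCA2 siRNA (BRCA2-1 in the labels) or 1 control siRNA (control-2), and grew without epidermal growth factor (EGF) or in complete medium with EGF. The 4 groups were BRCA2 siRNA without EGF (biological replicates A, B and C), control siRNA without EGF (A and C), BRCA2 siRNA with EGF (A, B and C) and control siRNA with EGF (A, B and C). Total RNA depleted of ribosomal RNA was sequenced, and the submitters' table holds log2 values and no counts, which leaves the sequencing depth unknown. All cells carry the telomerase immortalisation, each siRNA target has a single sequence, and the labels call the letters biological replicates without saying whether they were separate cultures, so the p-values measure the spread between libraries.

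A replication origin is licensed before S phase, when the origin recognition complex with CDC6 and CDT1 loads the MCM helicase, and it fires when kinases recruit CDC45, GINS and MCM10 to turn that helicase into an active fork. Polymerases, the PCNA clamp with its RFC loader, RPA and the flap-processing enzymes then copy the DNA, while ribonucleotide reductase and its partners supply nucleotides. Transcription of many of these genes is driven by E2F factors, which are released when growth factor signalling, such as that of EGF in mammary epithelial cells, leads to phosphorylation of the retinoblastoma protein. In bulk RNA a smaller share of cells in S phase and less RNA per cell cannot be told apart.

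RefSeq promoters (GRCh38.p14, 250 bases before to 50 bases after the annotated start) were at hand for 39 of the 44 genes, and not for CCNE2, GINS4, MCM4, MCM5 and RPA2. The promoters of 4 genes past the threshold in more than 1 comparison are printed 5′ to 3′, because the values below turn on these genes. Capitals mark the E2F sequences searched for (TTTGGCGC, TTTCCCGC, TTTCGCGC and TTTGCCGC), the CCAAT box (CCAAT) and the cell cycle homology region or CHR (TTTGAA and TTTAAA), each on both strands, so that ATTGG is a CCAAT box on the other strand. CDC45 has 3 promoters in the table, of which the first is shown.
CDC45 (chr22:19479670-19479969, + strand): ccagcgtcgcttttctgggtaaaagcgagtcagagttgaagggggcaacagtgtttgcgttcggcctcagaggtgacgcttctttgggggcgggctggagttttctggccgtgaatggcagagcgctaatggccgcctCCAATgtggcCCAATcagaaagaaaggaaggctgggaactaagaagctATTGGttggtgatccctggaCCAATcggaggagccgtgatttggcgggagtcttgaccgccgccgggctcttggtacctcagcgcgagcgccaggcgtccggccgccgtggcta
CDC6 (chr17:40287629-40287928, + strand): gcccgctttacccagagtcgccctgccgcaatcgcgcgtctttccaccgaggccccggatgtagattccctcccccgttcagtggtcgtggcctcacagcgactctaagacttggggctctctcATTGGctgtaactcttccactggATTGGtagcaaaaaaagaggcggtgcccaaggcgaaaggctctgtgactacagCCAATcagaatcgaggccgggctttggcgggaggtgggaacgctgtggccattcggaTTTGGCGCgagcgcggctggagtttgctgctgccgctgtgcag
ORC6 (chr16:46689409-46689708, + strand): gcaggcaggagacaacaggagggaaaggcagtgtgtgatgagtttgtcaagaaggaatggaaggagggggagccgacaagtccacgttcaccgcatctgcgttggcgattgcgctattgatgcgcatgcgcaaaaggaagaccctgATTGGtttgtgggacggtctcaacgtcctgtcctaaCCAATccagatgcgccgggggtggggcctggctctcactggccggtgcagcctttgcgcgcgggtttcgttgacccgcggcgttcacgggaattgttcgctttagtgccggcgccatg
RFC4 (chr3:186806433-186806732, - strand): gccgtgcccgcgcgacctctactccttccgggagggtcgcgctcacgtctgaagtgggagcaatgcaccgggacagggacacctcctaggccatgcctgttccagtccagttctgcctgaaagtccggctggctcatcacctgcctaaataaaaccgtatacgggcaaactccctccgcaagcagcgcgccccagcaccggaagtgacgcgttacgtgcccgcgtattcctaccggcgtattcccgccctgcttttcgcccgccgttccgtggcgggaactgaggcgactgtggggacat
The CDC6 promoter held 1 E2F sequence, TTTGGCGC, just after the start, and 3 CCAAT boxes before it. The CDC45 window held 4 CCAAT boxes and that of ORC6 held 2, while the RFC4 window held none of the sequences searched for, which says only that these letters are not in it. Over the genes with a promoter, 22 of 39 members held an E2F sequence (56.4%), against 3.99% of 27305 genes. A CCAAT box stood in 22 of 39 members (56.4%), against 39.7% of genes, and a CHR in 5 of 39 (12.8%), against 27.9% of genes. A gene with several promoters counted as holding a sequence where any of them did, and such matches are a description, not binding sites.

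BRCA2 (ENSG00000139618), the target of the siRNA, did not read lower in the libraries labelled BRCA2 siRNA. Its log2 values were 12.48, 12.27 and 12.11 with BRCA2 siRNA without EGF, against 11.44 and 11.65 with control siRNA without EGF, a difference of 0.74 ± 0.13 (log2 ± SE, limma, adjusted p = 0.0040). With EGF they were 12.43, 12.37 and 12.40 with BRCA2 siRNA, against 12.45, 12.13 and 12.48 with control siRNA. The group names below are those of the labels, and every siRNA comparison is between libraries so labelled. Basal epithelial markers were all present (8 of 8 tested), with KRT5 between 17.2 and 18.8. Of 8 luminal markers 5 were tested, with KRT18 between 10.9 and 12.0 and KRT8 between 10.5 and 11.4. The luminal markers KRT19, EPCAM and ELF5 lay under the filter in every library. The leukocyte markers PTPRC, CD3E and CD68 and the endothelial markers VWF and CDH5 did not pass it either, nor did COL1A2 among 8 fibroblast markers. The summed level of the fibroblast list (log2 of the summed linear values) was 11.9 to 12.6 with BRCA2 siRNA without EGF, 13.0 to 13.2 with control siRNA without EGF, 10.9 to 11.1 with BRCA2 siRNA with EGF and 10.7 to 11.1 with control siRNA with EGF. The summed basal list ran from 19.23 to 19.43, 19.57 to 19.74, 18.75 to 18.85 and 18.66 to 18.81 in the same order of groups. The summed endothelial list, in which KDR was the 1 marker tested, ran from 8.07 to 8.71, 10.16 to 10.41, 7.45 to 8.42 and 7.39 to 8.56, and the luminal list from 12.03 to 12.17, 12.21 to 12.24, 12.49 to 12.54 and 12.37 to 12.62. The summed fibroblast, basal and endothelial lists were thus highest in control siRNA without EGF, and the summed luminal list was lower without EGF than with it. Such sums follow the most abundant markers. With control siRNA, KRT8, MUC1 and GATA3 were higher and KRT18 lower without EGF than with it, and ESR1 overlapped. In control siRNA without EGF the basal marker ITGA6 was lowest, and TP63, ITGB4, LAMB3 and the fibroblast markers LUM and THY1 were not highest. The part of these lists in the results below was not tested.

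Both replicate B libraries with EGF stood apart from the other libraries with EGF in these genes. Measured as the log2 value minus the mean of the gene over 11 libraries, the median of the 44 genes was 0.38, -0.34 and 0.42 in replicates A, B and C with BRCA2 siRNA with EGF. It was 0.05, -0.58 and 0.35 in replicates A, B and C with control siRNA with EGF. Without EGF the medians were 0.23, 0.24 and 0.13 in replicates A, B and C with BRCA2 siRNA, against -0.61 and -0.32 in replicates A and C with control siRNA. The low libraries were therefore the 2 control siRNA libraries without EGF and the 2 replicate B libraries with EGF, and over all genes tested the library medians stayed between -0.01 and 0.01. Of the 44 genes, 25 were lowest in control siRNA without EGF replicate A, 18 in control siRNA with EGF replicate B and 1 in BRCA2 siRNA with EGF replicate B.

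**Figure D1:**
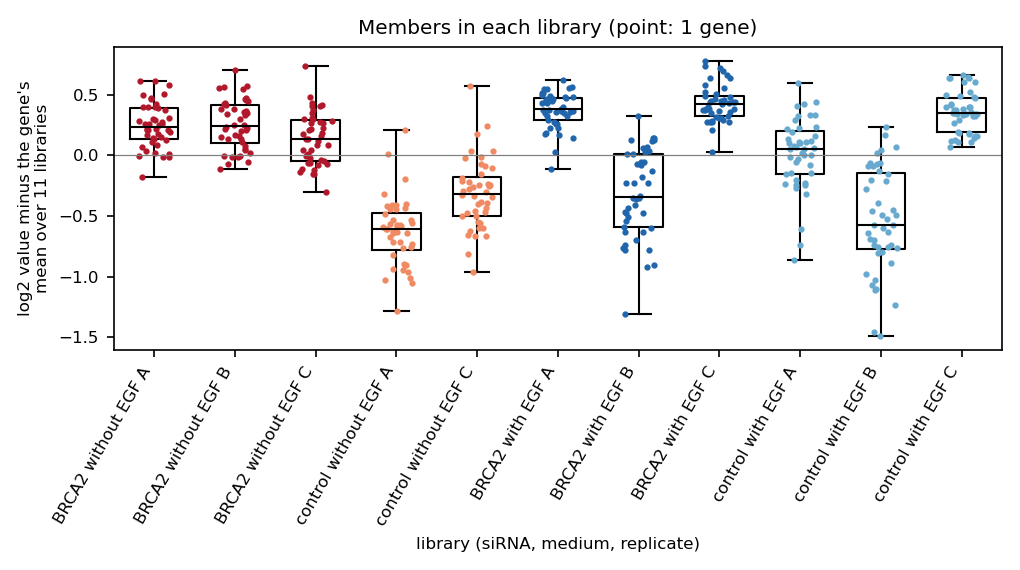
Log2 value minus the mean of the gene over 11 libraries (vertical axis) for the 44 genes in each library (horizontal axis); each point is 1 gene, the box spans the quartiles with the median, and the whiskers reach the lowest and highest gene. The 2 control siRNA libraries without EGF and the 2 replicate B libraries with EGF have medians below 0, from -0.61 to -0.32, while the other 7 lie between 0.05 and 0.42.

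Replicate B was lower than replicate C in all 44 genes with BRCA2 siRNA with EGF (median difference -0.71) and in 43 of 44 with control siRNA with EGF (median -0.90). A gap of more than 0.5 held for 27 genes (61.4%) with BRCA2 siRNA and 30 genes (68.2%) with control siRNA, against 9.93% and 12.7% of all genes tested. Without EGF, BRCA2 siRNA replicate B was not low, with a median of 0.11 over replicate C. Replicate A of control siRNA with EGF was also below replicate C (median -0.31, 36 of 44 genes). There a gap of more than 0.5 held for 16 genes (36.4%), against 7.84% of all genes tested. This library stays in the fits below that leave out the replicate B libraries with EGF. Replicate A of BRCA2 siRNA with EGF was below C to a lesser extent (median -0.07, 29 of 44 genes). The 6 cycling markers (MKI67, TOP2A, CCNB1, CDK1, BUB1 and PLK1) were lower in B than in C too, with median differences of -0.25 with BRCA2 siRNA and -0.21 with control siRNA. The 8 basal epithelial markers had median differences of the opposite sign, 0.43 with BRCA2 siRNA and 0.49 with control siRNA. The basal keratins KRT5 and KRT14 were the 2 of the 8 that were lower in B than in C, with either siRNA. KRT5 was at 17.27 in B and 17.65 in C with BRCA2 siRNA, and at 17.21 in B and 17.45 in C with control siRNA. The widest difference was that of LAMB3, a laminin chain, at 15.93 in B and 14.09 in C with BRCA2 siRNA, and at 15.84 in B and 14.00 in C with control siRNA. The part of these shifts in the gap was not tested. The labels give no batch or date that would tell these libraries from the others, so counts of called genes, and the withdrawal changes of called genes among the 44, are given below with all 11 libraries and without these 2 low libraries. Neither library is in the groups without EGF, so the fitted siRNA changes there do not move without them. The 2 were singled out by their low values in these same genes, while the background genes were not picked so. Leaving them out raises the means with EGF of most of the 44 genes, which favours calls of a fall. It also narrows the spread of these genes, which all comparisons share, and so favours calls in each of them. Counts without the 2 are therefore a description, not support for a fall, for the siRNA comparisons or for the interaction.

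The gap was widest in the S phase entry regulators. CCNE2, a cyclin E that activates CDK2 at the start of S phase, had B minus C differences of -2.08 with BRCA2 siRNA and -2.15 with control siRNA. The medians of the 4 entry regulators were -1.38 with BRCA2 siRNA and -1.52 with control siRNA, those of 11 licensing genes -0.80 and -1.02, and those of 7 firing genes -0.85 and -1.03. The medians were smaller in the 6 polymerase and primase genes (-0.46 and -0.74), the 8 clamp and Okazaki fragment genes (-0.42 and -0.64), the 4 nucleotide supply genes (-0.55 and -0.74) and the 4 chromatin and turnover genes (-0.45 and -0.48). At the other end stood CDC6, the licensing ATPase, with -0.31 and 0.04, CDC45 with -0.15 and -0.21, and RFC2, a clamp loader subunit, with -0.14 and -0.13.

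**Figure D2:**
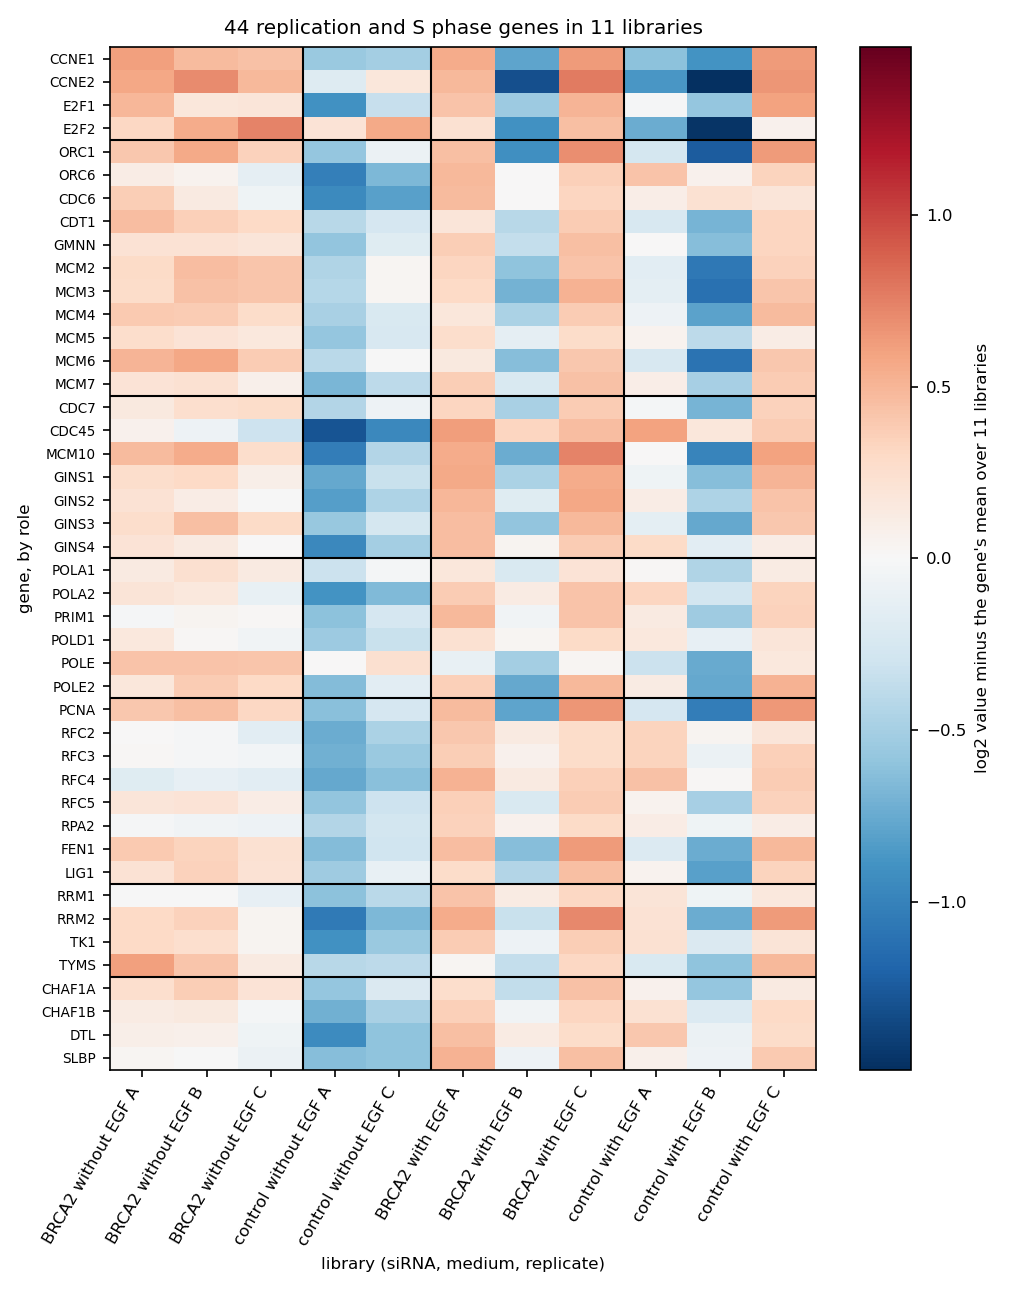
Log2 value minus the mean of the gene over 11 libraries (colour, red above and blue below) for 44 genes (rows, in blocks by role) in 11 libraries (columns, in blocks by group). The control siRNA libraries without EGF are blue in nearly all rows, and replicate B with EGF is blue mainly in rows such as CCNE2, E2F2, ORC1, MCM3, MCM10 and PCNA and near white in CDC6 and RFC2.

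The design gives 4 group comparisons and their interaction, and they share libraries, so their errors are shared too. The values were fitted in limma over all genes tested, with a gene called at an adjusted p (Benjamini-Hochberg over 17950 genes) below 0.05. On EGF withdrawal with BRCA2 siRNA 5 of 44 genes fell (background 13.8%) and 1 rose (background 13.4%), with a median change of 0.06. Without the 2 replicate B libraries with EGF, 12 fell and 1 rose (backgrounds 14.9% and 12.7%), with a median of -0.21, and all 6 calls were shared. The within-replicate medians were -0.13 in A, 0.62 in B and -0.33 in C, so the letter with the low library with EGF went the other way. The count of 6 was 0 without BRCA2 siRNA with EGF replicate A, 3 without replicate C of that group, 2 without BRCA2 siRNA without EGF replicate A, 2 without its replicate B and 1 without its replicate C.

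On EGF withdrawal with control siRNA 15 of 44 genes fell (34.1%, background 26.1% of all genes called lower) and none rose (background 24.7%), with a median change of -0.41. It left all control libraries without EGF below all with EGF in 16 genes (background 33.6%). With the 2 low libraries left out, 33 genes fell and 1 rose (backgrounds 27.3% and 24.0%), and the median was -0.64. The direction of this move was set by how the 2 were picked. The 15 calls were all among the 33. Within replicate A the median difference was -0.67 and within replicate C -0.68, with 40 and 42 of 44 genes lower without EGF. The summed level of the 6 cycling markers (log2) was 16.46 to 16.88 with BRCA2 siRNA without EGF, 15.97 to 16.09 with control siRNA without EGF, 16.46 to 16.73 with BRCA2 siRNA with EGF and 16.42 to 16.88 with control siRNA with EGF, lowest in the same group as the replication genes, and its part in the result was not tested.

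Without EGF, the libraries labelled BRCA2 siRNA were higher than control siRNA in all 44 genes by fitted change (median 0.69), and 15 passed the threshold (34.1%, background 11.2% of all genes called higher). In 43 genes every BRCA2 siRNA library without EGF lay above both control libraries without EGF (background 33.2%), E2F2 being the exception. The within-replicate medians were 0.84 in A and 0.45 in C, with 44 of 44 genes higher in each. Leaving out the 2 replicate B libraries with EGF, which are in neither group but enter the shared spread, gave 41 genes (background 16.5%), the 15 among them. That is a description, since the 2 were picked by these genes and their loss narrows the shared spread. The count was 26 without BRCA2 siRNA with EGF replicate B, 25 without control siRNA with EGF replicate B and 24 without control siRNA with EGF replicate C. It was 2 without control siRNA without EGF replicate A, and 9 without BRCA2 siRNA without EGF replicate A or without its replicate B. Without control siRNA without EGF replicate A, and in the 7 libraries of replicates B and C alone, that control group holds only replicate C. A loss of calls in such fits cannot be told from the loss of a library.

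With EGF, none of the 44 genes was called between BRCA2 siRNA and control siRNA (background 0.00557%, that is 1 gene), and none had an unadjusted p below 0.05 in limma. The fitted changes were all above 0, from 0.01 to 0.63, with a median of 0.20 against a median SE of 0.23. After the 2 replicate B libraries with EGF were left out none was called either. There 4 genes had an unadjusted p below 0.05 in limma, a count with no share over all genes beside it. The within-replicate medians were 0.28 in A, 0.22 in B and 0.08 in C.

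**Figure D3:**
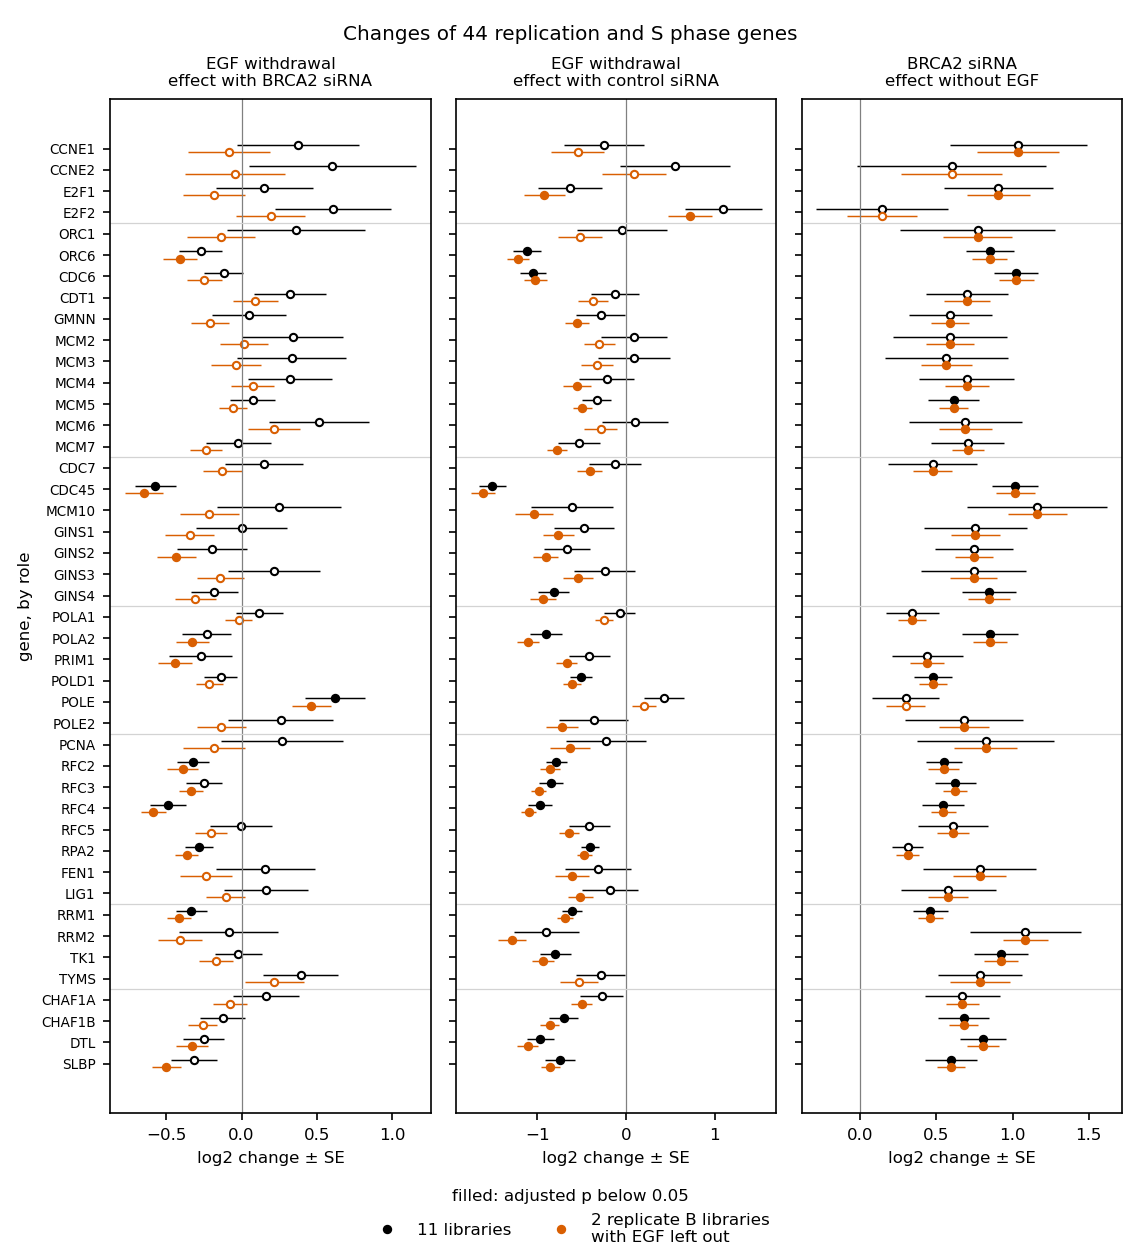
Log2 change ± SE (horizontal axis) of 44 genes (rows, by role) in 3 comparisons, from all 11 libraries (black) and without the 2 replicate B libraries with EGF (orange); filled points have an adjusted p below 0.05. In the BRCA2 siRNA withdrawal panel 6 black and 13 orange points are filled, in the control siRNA panel 15 and 34, and in the siRNA panel without EGF 15 and 41.

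Among the 4 S phase entry regulators, none passed the threshold in any comparison with all 11 libraries, and in limma 2 had an unadjusted p below 0.05 for BRCA2 siRNA without EGF and 1 for withdrawal with control siRNA. E2F1, an activator of replication genes, changed by -0.63 ± 0.36 on withdrawal with control siRNA (adjusted p = 0.16). Without the 2 replicate B libraries with EGF it fell by 0.92 (limma adjusted p = 0.0062). E2F2, another activating E2F, had a change of the opposite sign: every control siRNA library without EGF was above every one with EGF, with a change of 1.10 ± 0.43 (limma adjusted p = 0.053), and without the 2 libraries it rose by 0.72 (adjusted p = 0.032). The cyclins E, CCNE1 and CCNE2, changed by -0.24 ± 0.45 and 0.55 ± 0.62 on withdrawal with control siRNA, and did not pass the threshold with or without the 2 libraries.

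In origin licensing, 2 of 11 genes fell on withdrawal with control siRNA (background 26.1%) and 3 of 11 were higher with BRCA2 siRNA without EGF (background 11.2%). CDC6 (ENSG00000094804) loads the MCM helicase together with CDT1 and the origin recognition complex. Its log2 values were 12.44, 12.21 and 12.01 with BRCA2 siRNA without EGF, against 11.13 and 11.26 with control siRNA without EGF. With EGF they were 12.54, 12.08 and 12.39 with BRCA2 siRNA, against 12.17, 12.30 and 12.26 with control siRNA. The 2 control libraries without EGF were thus the low ones, and the other 9 libraries overlapped. On withdrawal CDC6 changed by -0.12 ± 0.13 with BRCA2 siRNA, short of the threshold, and fell by 1.05 ± 0.14 with control siRNA (2.07-fold lower, limma adjusted p = 0.00017; -1.02 without the 2 low libraries). It was 1.02 ± 0.14 higher with BRCA2 siRNA without EGF (limma adjusted p = 0.0021).

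ORC6 (ENSG00000091651), the smallest subunit of the origin recognition complex, had values of 10.81, 10.75 and 10.56 with BRCA2 siRNA without EGF, against 9.68 and 10.03 with control siRNA without EGF. With EGF ORC6 had 11.18, 10.70 and 11.04 with BRCA2 siRNA, against 11.11, 10.76 and 11.02 with control siRNA. Again only the control libraries without EGF were clear of the rest. ORC6 fell by 1.11 ± 0.16 on withdrawal with control siRNA (limma adjusted p = 0.00022; -1.22 without the 2 low libraries) and was 0.85 ± 0.16 higher with BRCA2 siRNA without EGF (adjusted p = 0.0056). The third licensing gene that was higher with BRCA2 siRNA without EGF was MCM5 (0.61 ± 0.17, limma adjusted p = 0.025). The 6 core helicase genes MCM2 to MCM7 changed by -0.53 to 0.11 on withdrawal with control siRNA, none past the threshold. When the 2 replicate B libraries with EGF were left out, MCM4, MCM5 and MCM7 fell, by 0.55, 0.49 and 0.77 (background 27.3%). MCM2, MCM3 and MCM6 changed by -0.33 to -0.29 there and did not pass.

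Among the origin firing genes CDC45 (ENSG00000093009), which joins MCM and GINS in the active helicase, had the largest fall of the 44 genes on withdrawal with control siRNA. Its values were 11.55, 11.42 and 11.18 with BRCA2 siRNA without EGF, against 10.21 and 10.53 with control siRNA without EGF. With EGF they were 12.11, 11.81 and 11.95 with BRCA2 siRNA, against 12.09, 11.66 and 11.87 with control siRNA. The libraries formed 3 levels that did not overlap, with all 6 libraries with EGF on top, BRCA2 siRNA without EGF between and control siRNA without EGF at the bottom. On withdrawal CDC45 fell by 0.57 ± 0.14 in the BRCA2 siRNA libraries (1.49-fold lower, limma adjusted p = 0.012; -0.65 without the 2 low libraries) and by 1.504 ± 0.15 in the control siRNA libraries (2.84-fold lower, adjusted p = 3.1e-05). It was 1.02 ± 0.15 higher with BRCA2 siRNA without EGF (2.02-fold, limma adjusted p = 0.0024).

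GINS4 (ENSG00000147536), a subunit of the GINS complex, had 9.40, 9.33 and 9.20 with BRCA2 siRNA without EGF, against 8.23 and 8.69 with control siRNA without EGF. In the libraries with EGF GINS4 stood at 9.66, 9.23 and 9.58 with BRCA2 siRNA, against 9.49, 9.04 and 9.30 with control siRNA. The control libraries without EGF were the lowest and did not overlap any other group. GINS4 fell by 0.81 ± 0.18 on withdrawal with control siRNA and was 0.85 ± 0.18 higher with BRCA2 siRNA without EGF (limma adjusted p = 0.0028 and 0.0084). Its withdrawal change was -0.93 without the 2 low libraries. Its partners GINS1, GINS2 and GINS3 changed by -0.66 to -0.24 on withdrawal with control siRNA without passing. Over all 11 libraries CDC45 and GINS4 were the firing genes called lower on withdrawal with control siRNA (background 26.1%). The fit without the 2 low libraries is a description, as they were picked by these genes. In it all 7 firing genes fell (background 27.3%), by 0.41 (CDC7, the kinase that phosphorylates MCM) to 1.61 (CDC45). MCM10, a factor of helicase activation, was among them, with a change of -0.60 ± 0.46 over all 11 libraries and -1.03 without the 2.

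**Figure D4:**
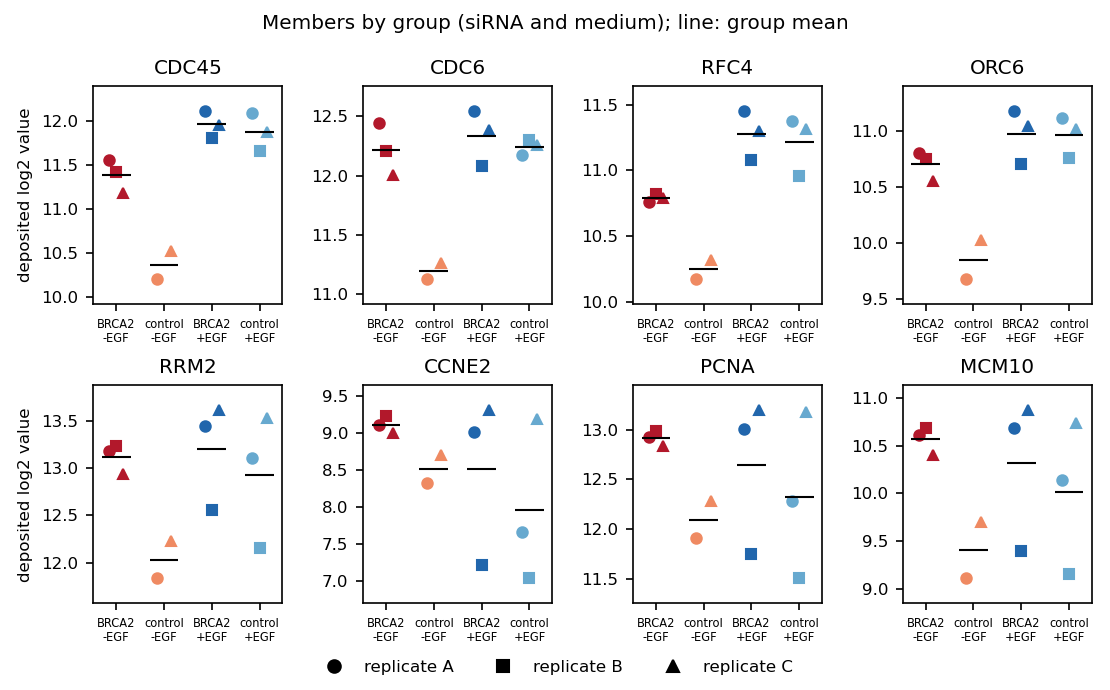
Deposited log2 value (vertical axis) of 8 genes by group, with replicates A, B and C as circles, squares and triangles and the group mean as a line. In CDC45, CDC6, RFC4 and ORC6 the control siRNA libraries without EGF lie below all others, while in CCNE2, PCNA and MCM10 the replicate B squares with EGF lie as low as those libraries or lower.

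Of the 6 polymerase and primase genes, POLA2 and POLD1 fell on withdrawal with control siRNA (background 26.1%). Both were higher with BRCA2 siRNA without EGF (background 11.2%). POLA2 (ENSG00000014138), the regulatory subunit of polymerase alpha, which with primase starts each new strand, had 10.48, 10.45 and 10.18 with BRCA2 siRNA without EGF, against 9.40 and 9.64 with control siRNA without EGF. POLA2 with EGF measured 10.67, 10.41 and 10.72 with BRCA2 siRNA, against 10.62, 10.02 and 10.63 with control siRNA. The groups without EGF did not overlap each other, and control siRNA with EGF replicate B lay below all BRCA2 siRNA libraries without EGF. POLA2 fell by 0.90 ± 0.18 (limma adjusted p = 0.0020; -1.10 without the 2 low libraries) on withdrawal with control siRNA and was 0.85 ± 0.18 higher with BRCA2 siRNA without EGF (adjusted p = 0.0096).

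POLD1 (ENSG00000062822), the catalytic subunit of polymerase delta, had 10.83, 10.70 and 10.63 with BRCA2 siRNA without EGF, against 10.14 and 10.35 with control siRNA without EGF. The EGF-grown libraries gave POLD1 values of 10.91, 10.71 and 10.97 with BRCA2 siRNA, against 10.84, 10.55 and 10.86 with control siRNA. The control libraries without EGF lay below every other library. POLD1 fell by 0.51 ± 0.12 on withdrawal with control siRNA and was 0.48 ± 0.12 higher with BRCA2 siRNA without EGF (limma adjusted p = 0.0053 and 0.020). Its withdrawal change was -0.61 without the 2 low libraries. POLE (ENSG00000177084), the catalytic subunit of polymerase epsilon, was the 1 gene that rose on withdrawal with BRCA2 siRNA. Its values were 12.15, 12.15 and 12.14 without EGF and 11.61, 11.21 and 11.75 with EGF in the libraries labelled BRCA2 siRNA, a change of 0.62 ± 0.20 (limma adjusted p = 0.039). The groups did not overlap, and without the 2 replicate B libraries with EGF the rise was 0.46 (adjusted p = 0.022). Leaving out single libraries ended this call in 8 of 11 fits, and 4 of 10 other alternatives ended it too, with an adjusted p of up to 0.29 over all alternatives.

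Among the clamp, clamp loader, RPA and Okazaki fragment genes, 3 of the 4 small RFC subunits listed fell on withdrawal with control siRNA. RPA2 was the other gene of this role called there, and 26.1% of all genes were called lower. RFC4 (ENSG00000163918) had 10.76, 10.82 and 10.79 with BRCA2 siRNA without EGF, against 10.17 and 10.32 with control siRNA without EGF. With EGF RFC4 had 11.45, 11.08 and 11.30 with BRCA2 siRNA, against 11.37, 10.96 and 11.31 with control siRNA. Like CDC45, it took 3 levels that did not overlap. On withdrawal RFC4 fell by 0.49 ± 0.12 in the BRCA2 siRNA libraries (limma adjusted p = 0.014) and by 0.97 ± 0.14 in the control siRNA libraries (adjusted p = 0.00019), and it was 0.54 ± 0.14 higher with BRCA2 siRNA without EGF (adjusted p = 0.017). The withdrawal changes of RFC4 without the 2 low libraries were -0.59 with BRCA2 siRNA and -1.10 with control siRNA.

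RFC2 (ENSG00000049541) had 10.71, 10.69 and 10.55 with BRCA2 siRNA without EGF, against 9.97 and 10.23 with control siRNA without EGF. In the libraries with EGF RFC2 stood at 11.10, 10.84 and 10.98 with BRCA2 siRNA, against 11.03, 10.75 and 10.88 with control siRNA. It also took 3 separate levels, and on withdrawal it fell by 0.32 ± 0.11 in the BRCA2 siRNA libraries (limma adjusted p = 0.042) and by 0.79 ± 0.12 in the control siRNA libraries (adjusted p = 0.00030). For RFC2 these changes were -0.39 and -0.85 without the 2 low libraries, and the call with BRCA2 siRNA was lost in 5 of 11 fits that left out 1 library and in 5 of 10 other alternatives. RFC3 (ENSG00000133119) had 10.95, 10.92 and 10.89 with BRCA2 siRNA without EGF, against 10.22 and 10.38 with control siRNA without EGF. RFC3 with EGF measured 11.30, just under 11 and 11.21 with BRCA2 siRNA, against 11.27, 10.85 and 11.29 with control siRNA. RFC3 fell by 0.84 ± 0.14 on withdrawal with control siRNA (limma adjusted p = 0.00049; -0.98 without the 2 low libraries), and its replicate B library of control siRNA with EGF lay just below the BRCA2 siRNA libraries without EGF.

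RPA2 (ENSG00000117748), a subunit of the protein that coats single-stranded DNA, had 11.18, 11.14 and 11.12 with BRCA2 siRNA without EGF, against 10.75 and 10.91 with control siRNA without EGF. The EGF-grown libraries gave RPA2 values of 11.54, 11.26 and 11.48 with BRCA2 siRNA, against 11.30, 11.12 and 11.30 with control siRNA. Within each siRNA the libraries without EGF lay below those with EGF. On withdrawal RPA2 fell by 0.28 ± 0.09 in the BRCA2 siRNA libraries (limma adjusted p = 0.041) and by 0.41 ± 0.10 in the control siRNA libraries (adjusted p = 0.0062). The RPA2 changes were -0.36 and -0.47 without the 2 low libraries. Its call with BRCA2 siRNA was lost in 8 of 11 fits that left out 1 library and in 5 of 10 other alternatives, with an adjusted p of up to 0.35 in limma. The other 4 genes of this role were not called on withdrawal with control siRNA over 11 libraries: RFC5 (-0.41), the clamp PCNA (-0.23), the flap nuclease FEN1 (-0.31) and the ligase LIG1 (-0.18). After the 2 replicate B libraries with EGF were left out all 4 fell, by 0.64, 0.63, 0.61 and 0.51, and so did the other 4. In that fit 27.3% of all genes were called lower.

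In nucleotide supply, RRM1 and TK1 fell on withdrawal with control siRNA (background 26.1%). Both were higher with BRCA2 siRNA without EGF (background 11.2%). RRM1 (ENSG00000167325), the large subunit of ribonucleotide reductase, had 13.55, 13.55 and 13.44 with BRCA2 siRNA without EGF, against 12.95 and 13.16 with control siRNA without EGF. With EGF RRM1 had 13.99, 13.68 and 13.87 with BRCA2 siRNA, against 13.75, 13.50 and 13.72 with control siRNA. Within each siRNA the libraries without EGF lay below those with EGF. On withdrawal RRM1 fell by 0.33 ± 0.10 in the BRCA2 siRNA libraries (limma adjusted p = 0.032) and by 0.60 ± 0.11 in the control siRNA libraries (adjusted p = 0.0012). Both were larger without the 2 low libraries, at -0.41 and -0.68. The RRM1 call with BRCA2 siRNA was lost in 5 of 11 fits that left out 1 library and in 3 of 10 other alternatives.

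TK1 (ENSG00000167900), the thymidine kinase of S phase cells, had 11.30, 11.25 and 11.04 with BRCA2 siRNA without EGF, against 10.10 and 10.45 with control siRNA without EGF. In the libraries with EGF TK1 stood at 11.38, 10.92 and 11.36 with BRCA2 siRNA, against 11.23, 10.78 and 11.19 with control siRNA. The BRCA2 siRNA libraries without EGF overlapped those with EGF, and the control libraries without EGF lay below all of them. TK1 fell by 0.79 ± 0.18 on withdrawal with control siRNA and was 0.92 ± 0.18 higher with BRCA2 siRNA without EGF (limma adjusted p = 0.0033 and 0.0059). Its withdrawal change was -0.94 without the 2 low libraries. RRM2, the regulated small subunit of ribonucleotide reductase, changed by -0.90 ± 0.37 on withdrawal with control siRNA (adjusted p = 0.060). Without the 2 replicate B libraries with EGF it fell by 1.28 (limma adjusted p = 0.00011). TYMS, which makes thymidylate, changed by -0.29 ± 0.28 and did not pass with or without them.

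Of the 4 genes of chromatin behind the fork and S phase turnover, CHAF1B, DTL and SLBP fell on withdrawal with control siRNA (background 26.1%). Those that fell were also higher with BRCA2 siRNA without EGF (background 11.2%). DTL (ENSG00000143476), the substrate receptor of the ubiquitin ligase that removes CDT1 in S phase, had 11.88, 11.87 and 11.74 with BRCA2 siRNA without EGF, against 10.86 and 11.19 with control siRNA without EGF. DTL with EGF measured 12.24, 11.92 and 12.07 with BRCA2 siRNA, against 12.20, 11.71 and 12.07 with control siRNA. The control libraries without EGF were the lowest, and replicate B of control siRNA with EGF lay below the BRCA2 siRNA libraries without EGF. DTL fell by 0.96 ± 0.15 on withdrawal with control siRNA and was 0.80 ± 0.15 higher with BRCA2 siRNA without EGF (limma adjusted p = 0.00038 and 0.0056). Its withdrawal change was -1.11 without the 2 low libraries.

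CHAF1B (ENSG00000159259), a subunit of the histone chaperone CAF-1, had 10.25, 10.27 and 10.10 with BRCA2 siRNA without EGF, against 9.41 and 9.64 with control siRNA without EGF. The EGF-grown libraries gave CHAF1B values of 10.48, 10.06 and 10.44 with BRCA2 siRNA, against 10.35, 9.92 and 10.41 with control siRNA. It fell by 0.70 ± 0.17 on withdrawal with control siRNA (limma adjusted p = 0.0047; -0.86 without the 2 low libraries). SLBP (ENSG00000163950), which binds the stem-loop of replication-dependent histone mRNAs, had 11.50, 11.46 and 11.38 with BRCA2 siRNA without EGF, against 10.84 and 10.87 with control siRNA without EGF. With EGF SLBP had 11.98, 11.39 and 11.91 with BRCA2 siRNA, against 11.54, 11.39 and 11.86 with control siRNA. It fell by 0.75 ± 0.17 on withdrawal with control siRNA (limma adjusted p = 0.0037; -0.85 without the 2 low libraries). In both genes the control libraries without EGF were below every other library, and the groups with EGF overlapped BRCA2 siRNA without EGF. CHAF1A, the partner of CHAF1B, changed by -0.27 ± 0.24 and fell by 0.50 without the 2 replicate B libraries with EGF (adjusted p = 0.0059).

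The interaction takes the withdrawal change in the BRCA2 siRNA libraries and subtracts that in the control siRNA libraries, so a positive value means a smaller fall or a larger rise in the libraries labelled BRCA2 siRNA. It was above 0 in 43 of 44 genes by fitted value, with a median of 0.47, and E2F2 was the exception at -0.49 ± 0.58. It passed the threshold in 2 genes (4.55%, background 1.38% of all genes called higher). These were CDC6 (0.93 ± 0.19, limma adjusted p = 0.033) and CDC45 (0.93 ± 0.21, adjusted p = 0.037), at 0.77 and 0.96 without the 2 low libraries. In limma 12 genes had an unadjusted p below 0.05, a count with no share over all genes beside it. When the 2 replicate B libraries with EGF were left out, 9 genes passed (background 1.88%): ORC6, CDC6, CDC45, POLA2, RFC3, RFC4, TK1, CHAF1B and DTL. That is a description, since the 2 were picked by these genes. The count was 6 without control siRNA with EGF replicate B alone. It was 1 without BRCA2 siRNA with EGF replicate A or its replicate B. It was 0 without BRCA2 siRNA without EGF replicate A or B, control siRNA without EGF replicate A or C, BRCA2 siRNA with EGF replicate C, or control siRNA with EGF replicate A.

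The gap between replicates B and C with EGF and the withdrawal change ranked the genes differently. The gap in BRCA2 siRNA with EGF and the control siRNA withdrawal change averaged over replicates A and C share no library. Their errors are still not independent, since deviations of replicate C correlated at 0.70 between the siRNA groups with EGF. Replicate A of control siRNA with EGF, which enters the withdrawal change, was itself low in some genes with a wide gap. Its A minus C difference was -1.52 in CCNE2 and -1.24 in CCNE1. How far this sets the ranking was not tested. Across the 44 genes Pearson's r was -0.45 and Spearman's rho -0.43, given as a description, since genes are not independent replicates. An offset of replicate A cancels in both measures. CCNE2, with the widest gap (-2.08), had a withdrawal change of 0.09 on this measure, and E2F2 had -1.35 and 0.72. The CCNE2 mean joined letters that went opposite ways. Control siRNA values without and with EGF were 8.33 and 7.66 in replicate A, and 8.69 and 9.18 in replicate C. CDC45 had a gap of -0.15 and a withdrawal change of -1.61, and ORC6 had -0.34 and -1.22. Among the 39 genes with a promoter, the 22 that held an E2F sequence had a median gap of -0.83 and a median withdrawal change of -0.54, and the 17 without one had -0.48 and -0.85. The ranges overlapped, with gaps of -1.44 to -0.15 and -1.62 to -0.14, and withdrawal changes of -1.11 to 0.72 and -1.61 to -0.50. Being without one says only that these exact letters are not in the window.

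**Figure D5:**
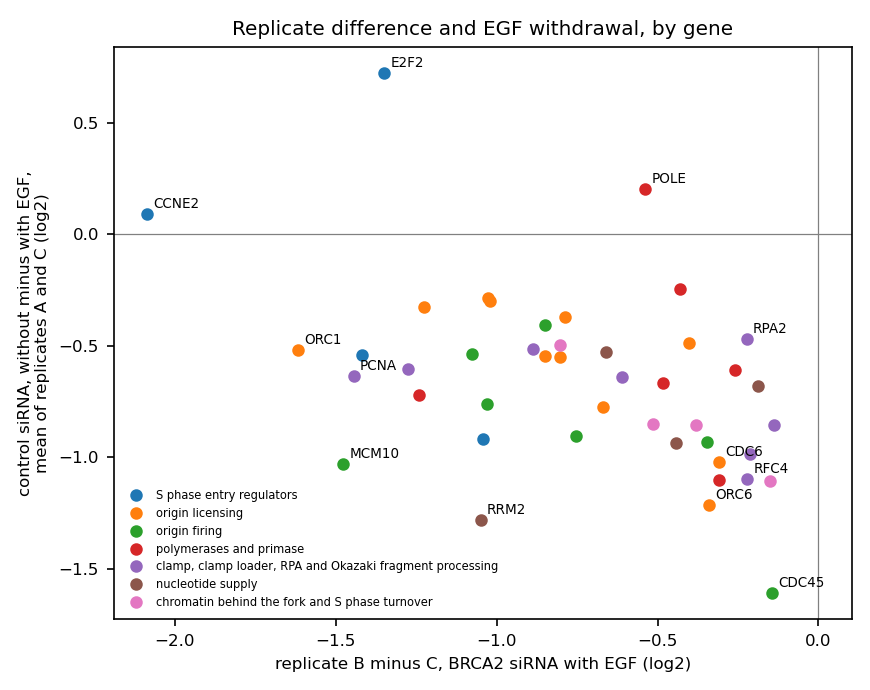
Each point is 1 of 44 genes, coloured by role: replicate B minus C in BRCA2 siRNA with EGF (horizontal axis, log2) against the mean change without minus with EGF in replicates A and C of control siRNA (vertical axis, log2). CCNE2 and E2F2 stand at the left with changes of 0.09 and 0.72, CDC45 at the right with -1.61, and RRM2 and MCM10 are low on both.

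A further 76 genes of the same processes, all tested, were read as the wider pathway. On withdrawal with BRCA2 siRNA 13 fell (17.1%, background 13.8%) and 1 rose (background 13.4%), with a median of -0.12. With control siRNA 42 fell (55.3%, background 26.1%) and 3 rose (background 24.7%), with a median of -0.45. Without EGF, 29 were higher (38.2%, background 11.2%) and 1 lower (background 9.36%) with BRCA2 siRNA than with control siRNA, with a median of 0.45. With EGF none was called in limma. With the 2 low libraries left out, 28 fell and 1 rose on withdrawal with BRCA2 siRNA (backgrounds 14.9% and 12.7%). With control siRNA 54 fell and 2 rose (backgrounds 27.3% and 24.0%) in that fit. There 52 were higher (background 16.5%) and 1 lower (background 12.3%) with BRCA2 siRNA without EGF. Other choices gave more calls or fewer. The replicate block gave 17 that fell with BRCA2 siRNA, 50 that fell with control siRNA and 47 higher with BRCA2 siRNA without EGF (backgrounds 16.2%, 26.3% and 13.3%). Groups fitted alone gave 56 higher in that siRNA comparison (background 22.1%), and leaving out control siRNA with EGF replicate C gave 42 (background 14.9%). The 13 that fell with BRCA2 siRNA were 4 without BRCA2 siRNA with EGF replicate A, 5 without BRCA2 siRNA without EGF replicate C, 7 without replicate B of that group, 8 with no filter or with quantile normalization, and 0 with replicates B and C alone. The 42 that fell with control siRNA were 29 to 48 when 1 library was left out and 8 with replicates B and C alone. The 29 higher with BRCA2 siRNA without EGF were 1 without control siRNA without EGF replicate A, 10 without its replicate C, 11 without BRCA2 siRNA without EGF replicate A, 16 without its replicate B, and 0 with replicates B and C alone. The 3 that rose with control siRNA, named after their values were seen, were TFDP2 (0.40), MCM9 (0.35) and CUL4B (0.32), of which MCM9 did not pass without the 2 low libraries (limma adjusted p = 0.053). Among those that fell with control siRNA were MCM8 (-1.03 ± 0.11), a helicase of the MCM family, DBF4 (-1.02 ± 0.15), the activator of CDC7, TIPIN (-0.81 ± 0.12), of the fork protection complex, POLD2 (-0.77 ± 0.10), the second subunit of polymerase delta, and CHTF18 (-0.84 ± 0.11), of an alternative clamp loader. The p53-inducible reductase subunit RRM2B and the CDK inhibitor CDKN1A fell with either siRNA: RRM2B by 0.99 ± 0.10 with BRCA2 siRNA and 1.18 ± 0.11 with control siRNA, and CDKN1A by 0.92 ± 0.14 with BRCA2 siRNA and 1.04 ± 0.15 with control siRNA. E2F5, a repressive E2F, was the 1 gene lower with BRCA2 siRNA without EGF (-0.45 ± 0.14, limma adjusted p = 0.046), and it also fell on withdrawal with BRCA2 siRNA (-0.52 ± 0.13, adjusted p = 0.014). The E2F5 call without EGF was lost in 7 of 11 fits that left out 1 library, with a term for replicate A, with no filter, with quantile normalization and with replicates B and C alone. The replicate gap was smaller in this list, with a median of B minus C of -0.29 with BRCA2 siRNA with EGF and -0.36 with control siRNA with EGF.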

How the data were processed

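Total RNA of 11 libraries was analysed from 1 table of log2 expression values deposited by the authors, with values from -2.94 to 20.62 and no counts. Per the submitters' processing notes the build was hg19 and the tools were TopHat2 2.0.11, DESeq2 and limma. Their roles are not stated there. The read counter and the use of strand are not given in these sources, so reads from genes that overlap on opposite strands cannot be told apart.

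In all 40460 genes the mean of the 4 replicate A libraries equals that of the 7 replicate B and C libraries (largest difference 7.2e-09), a centring the sources do not describe. Since the control group without EGF lacks a replicate B, an offset of replicate A does not cancel between that group's mean and the others, though it cancels in differences within a letter.

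Groups follow the labels. The values were fitted as deposited in limma 3.58.1 (R 4.3.3) with 4 group means, a mean-variance trend and 7 residual degrees of freedom. Genes at 10 or more on the linear scale in at least 2 libraries (17950) were tested, two-sided, with Benjamini-Hochberg adjustment over all of them at 0.05, and ± gives moderated standard errors. The script was tested on simulated data. Symbols matched 37585 Ensembl IDs (92.9%).

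Values in every library are given for the genes past the threshold in 2 or more comparisons. Others are given by range and counts, or named from the list. From the other replication genes, up to 4 per role were named by smallest p within a comparison. The genes and lists were chosen with earlier results of these data known.

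Of 15 same-letter pairs between groups, 2 had deviations that correlated above 0.1 (range -0.37 to 0.70). These 2 joined the groups with EGF, at 0.70 for B with B and 0.70 for C with C, against -0.12 for A with A. Deviations were taken from means of 2 or 3 libraries and replicate A was centred, so the count cannot show whether the letters pair elsewhere. Alternatives were a replicate block, a term for replicate A, libraries B and C alone, leaving out the 2 replicate B libraries with EGF, no filter or a stricter one, quantile normalization, median centring, groups fitted alone, no trend, and leaving out each library.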

Additional observations from a re-analysis of the deposited data

Results flagged for a closer look

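The EGF withdrawal change differed between the siRNAs, by the interaction term of the limma fit with adjusted p below 0.05, in 2 of the 44 genes and in 4 of the 76 other replication genes. CDC6 changed by -0.12 ± 0.13 with BRCA2 siRNA and -1.05 ± 0.14 with control siRNA, an interaction of 0.93 (adjusted p = 0.033). CDC45 changed by -0.57 ± 0.14 with BRCA2 siRNA and -1.504 ± 0.15 with control siRNA, an interaction of 0.93 (adjusted p = 0.037). E2F4, an E2F that represses in resting cells, changed by -0.20 ± 0.10 with BRCA2 siRNA and -0.86 ± 0.11 with control siRNA, an interaction of 0.66 (adjusted p = 0.043). DBF4B, a relative of DBF4, changed by -0.07 ± 0.11 with BRCA2 siRNA and -0.78 ± 0.12 with control siRNA, an interaction of 0.71 (adjusted p = 0.038). POLD2 changed by -0.18 ± 0.09 with BRCA2 siRNA and -0.77 ± 0.10 with control siRNA, an interaction of 0.59 (adjusted p = 0.037). CHTF18 changed by -0.09 ± 0.10 with BRCA2 siRNA and -0.84 ± 0.11 with control siRNA, an interaction of 0.75 (adjusted p = 0.031).

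All 6 interactions passed without the 2 replicate B libraries with EGF. Of 11 fits that each left out 1 library, the adjusted p stayed below 0.05 in 5 for CDC6, 3 for CDC45, 3 for E2F4, 2 for DBF4B, 3 for POLD2 and 4 for CHTF18. The estimates stayed positive, from 0.52 for POLD2 to 1.09 for CDC45. Among the other alternatives, replicates B and C alone gave adjusted p above 0.9 for all 6. E2F4 also lost its call with no filter (0.070), a term for replicate A (0.051), no trend (0.070) and median centring (0.055). DBF4B lost it with no filter (0.074) and a term for replicate A (0.051), POLD2 with no filter (0.054), no trend (0.065) and quantile normalization (0.051), and CDC6 and CDC45 with no trend (0.053 and 0.060). These siRNA names are those of the labels, which the BRCA2 mRNA values do not bear out. No group has enough libraries for a test of single outlying values.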

How the results depend on the processing

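No change of a called gene reversed under any alternative run. Of the 15 calls for BRCA2 siRNA without EGF 2 (CDC6 and CDC45) held in every fit that left out 1 library, of the 6 for withdrawal with BRCA2 siRNA 0, of the 15 for withdrawal with control siRNA 11, and of the 2 for the interaction 0. Leaving out 1 library gave 2 to 26 members called for BRCA2 siRNA without EGF, 0 to 6 for withdrawal with BRCA2 siRNA, 11 to 22 for withdrawal with control siRNA, 0 to 6 for the interaction and 0 for BRCA2 siRNA with EGF. Over all genes it gave 515 to 4767, 2228 to 6198, 6073 to 10025, 0 to 1607 and 0 to 1. With the replicate block, 41 members were called for BRCA2 siRNA without EGF, 6 for withdrawal with BRCA2 siRNA, 25 for withdrawal with control siRNA and 6 for the interaction, and 930 and 0 genes for the interaction and for BRCA2 siRNA with EGF, against 595 and 1. Libraries of the same letter correlated only for B and for C with EGF, and pairing elsewhere was not shown. Without the 2 replicate B libraries with EGF the members called were 41, 13, 34 and 9 in the same order, and 0 genes were called for BRCA2 siRNA with EGF. With replicates B and C alone they were 0, 0, 4 and 0 in limma (at an unadjusted p below 0.05 there were 9, 1, 9 and 2), and 0, 46, 1977 and 0 genes, with 0 for BRCA2 siRNA with EGF. Groups fitted alone gave 43 members and 6781 genes for BRCA2 siRNA without EGF, against 15 and 3688, and 0 genes for BRCA2 siRNA with EGF. For withdrawal with BRCA2 siRNA the count of 6 was 3 with a term for replicate A, 3 with no filter, 2 with quantile normalization and 2 with no trend. A term for replicate A gave 0 genes for BRCA2 siRNA with EGF, and no trend gave 0 members and 375 genes for the interaction. The cause of these shifts was not tested. For the 76 other genes, leaving out 1 library gave 4 to 18 that fell on withdrawal with BRCA2 siRNA, 29 to 48 with control siRNA, and 1 to 42 higher with BRCA2 siRNA without EGF. Scaling moved the median of all genes by at most 0.03. With 2 to 3 libraries a group and no counts, precision rests on the spread between libraries. Control siRNA without EGF holds 1 library in replicates B and C alone, and where its replicate A or C is left out. Losses of calls in those fits cannot be told from the loss of a library. No share over all genes was computed at an unadjusted p below 0.05, so member counts at it have no background.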
